A study of Saccharomyces cerevisiae with 25 samples.

Results

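Mitochondrial ribosomal proteins were followed by their mRNA levels in budding yeast moved from medium rich in phosphate to medium without phosphate. The members were all genes of the deposited table whose name is MRPL, MRPS, MRP or RSM followed by a number, which gave 66 of 6650 named genes. The RefSeq annotation of build R64 names 64 of them as mitochondrial ribosomal proteins, 37 in the large (54S) and 27 in the small (37S) subunit. The other 2 go against the label: MRP8 is annotated only as Mrp8p, and RSM22 as a tRNA methyltransferase. Among the 64, 40 are homologues of bacterial ribosomal proteins and 24 have no bacterial counterpart. The yeast was BY4741, wild type for this study, a haploid laboratory strain of mating type a with deletions of HIS3, LEU2, MET17 and URA3. All libraries share this background. The no-phosphate samples were taken every 15 min, from 15 to 360 min after the cells had been washed and transferred (24 libraries), and the high-phosphate sample was taken at 0 min (1 library).

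The mitochondrial ribosome makes the few proteins that the mitochondrial genome encodes, most of them core subunits of the respiratory chain. Its own proteins are nearly all encoded in the nucleus, made on cytosolic ribosomes and imported. In Saccharomyces cerevisiae many of their mRNAs are known targets of Puf3, an RNA-binding protein that binds a short element after the stop codon and acts on the decay, translation and localisation of mRNAs for mitochondrial proteins. The cytosolic ribosomal proteins, by contrast, are known to be switched together with growth by the regulators Sfp1, Ifh1 and Fhl1.

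The core of that element, TGTANATA, was looked for on the coding strand within 250 bases after the stop codon. It was present in 64 of 66 members (97.0%), against 844 of 5852 other annotated genes (14.4%). Other lists of mitochondrial genes often held the motif too, with 100% of 13 tRNA synthetases and of 4 insertion genes. The shares were 77.8% in translation factors, 75.0% in mitoribosome assembly and 73.3% in translational activators. They were 72.7% in protein import, 55.6% in mitochondrial genome expression and 20.5% in the nuclear-encoded respiratory chain. The 2 members without it were MRP8 and RSM22, the same 2 that the annotation does not name as ribosomal proteins. Within 100 bases, 89.4% of the members and 9.38% of the other genes held it. Below are the matches of the 8 ribosomal members whose mRNA was higher late than early in the course. MRPL39, the member that was lower, follows them. The matches of the other members are not printed, and whether the motif relates to the change was not tested. The capitals mark the motif, the sequences run 5′ to 3′ on the coding strand, and the coordinates are those of the printed bases in build R64.
RSM10: tactTGTAAATAaaat, chrIV:540469-540484, plus strand
MRPS16: atgtTGTATATAtgtt, chrXVI:528888-528903, minus strand
MRPS16: gactTGTAAATAatac, chrXVI:528847-528862, minus strand
RSM27: ttcaTGTACATAcaaa, chrVII:922554-922569, plus strand
RSM7: tgccTGTACATAaaca, chrX:638199-638214, minus strand
MRP51: gttcTGTAAATAaata, chrXVI:327704-327719, plus strand
MRPL23: tccaTGTATATAttta, chrXV:612542-612557, plus strand
MRPL24: ccccTGTATATAaaaa, chrXIII:650863-650878, plus strand
MRPL24: tgttTGTACATAtgta, chrXIII:650887-650902, plus strand
MRPL25: atcaTGTAAATAattt, chrVII:637015-637030, minus strand
MRPL39: atccTGTAAATAagta, chrXIII:251214-251229, minus strand

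The 64 members held 80 matches, with 1 match in 50 members, 2 in 12 and 3 or more in 2. The nearest match began between 8 bases (MRPS5, of the small subunit) and 139 bases (MRPS9, of the small subunit) after the stop codon, with a median of 51 bases, and in 0 of the 64 did it reach the next annotated gene. The variable base was A in 45.0%, T in 31.2%, C in 22.5% and G in 1.25% of the members' matches, against 26.4%, 50.8%, 16.4% and 6.51% in the other genes. A C stood in the second base before the motif in 63.8% of the members' matches and 24.1% of the others'. A match describes the letters only, and no binding was measured. The annotation holds no UTRs, so whether each match lies in the transcript was not examined.

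**Figure D1:**
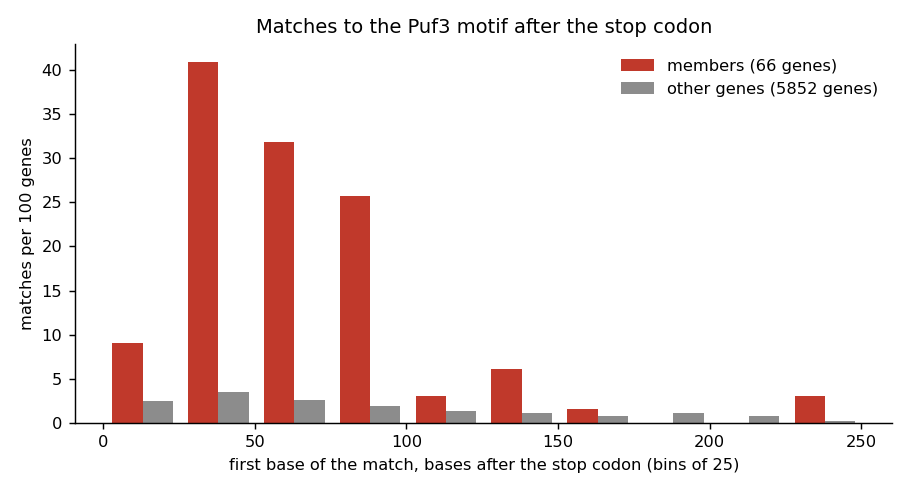
Distance of each TGTANATA match from the stop codon, in bins of 25 bases (x axis), as matches per 100 genes (y axis), for the 66 members (red) and 5852 other annotated genes (grey). Most of the members' matches lie within 100 bases, where 89.4% of the members hold one.

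Before the coding sequence, none of the 5 motifs examined was as common in the members. In the window from 250 bases before to 50 after the start of the coding sequence, on either strand, AATTTT was present in 40.9% of the members and 52.3% of the other genes, and AGGGG in 16.7% and 21.9%. GATGAG was present in 11 of 66 members and 1170 of 5852 other genes. CCAAT, the core of the Hap complex element known from respiratory genes, was present in 40.9% of the members and 43.7% of the others, and CACGTG, the core bound by Pho4, in 3.03% and 2.94%. The members lie on 14 chromosomes, and MRPL44 alone has 2 coding exons. MRP4, MRPL19 and MRPL51 each overlap another annotated gene, and no source used here gives the strand, so their values are uncertain.

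Levels are log2 of reads scaled to 1000000 per library (RPM). Depth, taken from the steps of the values, was 209394 to 1737019 reads per library with a median of 804867, and a member had a median of 65 reads, for which counting error alone gives an SD of 0.18 log2. A gene below about 10 reads is not listed. The library at 120 min was the shallowest, and it listed 55 of the 66 members and 3261 genes in all. In all, 55 members were listed in all 25 libraries, 7 were missing at 120 min only, 3 in 2 libraries, and MRPL4 (protein uL29m) was listed in 19. The genes deleted in the strain and the 8 mitochondria-encoded genes examined were listed in no library, so the members' translation targets are not described here. Genes specific to mating type a had a median of 10.86 log2 RPM at 315 to 360 min, against 4.82 for those specific to mating type alpha. Each time had 1 library, so 4 neighbouring times form a window, and the p-values rest on how neighbouring samples of this course scatter, which may be technical. In bulk RNA, fewer cells of a type and less RNA per cell cannot be told apart.

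The mRNAs of the subunits were present at modest and very unequal levels. Per kb of coding sequence, the 64 ribosomal members had a median of 122 RPM per kb at 315 to 360 min and 96.8 RPM per kb at 0 min in high phosphate. At 0 min the mRNA levels per length ran from 20.5 RPM per kb for MRPL4 to 757 RPM per kb for MRPS16 (protein bS16m of the small subunit). That was a 36.9-fold spread among mRNAs for proteins of 1 particle, and no protein was measured. The next most abundant per length at 0 min were MRPL37 (mL54) at 534 and MRPL51 (mL43) at 390 RPM per kb. MRPL51 overlaps another annotated gene, so its level is uncertain. The late levels followed those at 0 min: across the 64 genes, which share libraries and are not independent, the log2 levels at 0 min and at 315 to 360 min had a Pearson r of 0.96. Cytosolic ribosomal proteins had a median of 655 RPM per kb at 315 to 360 min and 4110 RPM per kb at 0 min.

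As a group the members took a slightly larger part of the reads without phosphate. They held 0.483% of the reads at 0 min, and then 0.575% ± 0.0342, 0.634% ± 0.108, 0.725% ± 0.0713, 0.679% ± 0.0427, 0.646% ± 0.00841 and 0.694% ± 0.0299 in the 6 successive windows (SD, n = 4 libraries each). The share was highest at 135 to 180 min and never came back to the level in high phosphate. Over the same windows the 137 cytosolic ribosomal protein genes held 31.8% of the reads at 0 min, 28.1% ± 0.443 at 15 to 60 min, 8.93% ± 3.02 at 135 to 180 min and 5.41% ± 1.02 at 315 to 360 min. For each read from a member there were thus 65.9 reads from cytosolic ribosomal proteins at 0 min, 49.1 ± 3.43 at 15 to 60 min and 7.86 ± 1.74 at 315 to 360 min. Shares within a library have a fixed sum, and the part of the cytosolic ribosomal genes in the members' share was not tested.

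The median member had 6.00 log2 RPM at 0 min and window means of 6.25, 6.39, 6.46, 6.32, 6.18 and 6.30 in time order. Smoothed over 3 neighbouring times, this median was highest at 135 min, both in RPM and when centred on the median gene of each library. That point takes in the shallow library at 120 min. Without that library the median was highest at 150 min in RPM, and at 60 min when centred. The centred values are those of the 55 members listed in all 25 libraries, whose window means in RPM were 6.37, 6.47, 6.62, 6.45, 6.32 and 6.44. Their centred window means were -0.30, -0.29, -0.35, -0.57, -0.67 and -0.59 in time order. On that scale the last 3 windows lay lowest, and the window mean at 135 to 180 min was not the highest. Of these 55, 30 had their highest smoothed level at 135 to 180 min, 13 at 315 to 360 min, 6 at 195 to 240 min, 5 at 75 to 120 min and 1 at 255 to 300 min in RPM. Without the 120 min library 27 had it at 135 to 180 min. The shares of all genes by time of highest level are not given here, so these counts cannot be set against a background. The median level of all genes rose then too, from 0.08 log2 units above 0 min at 105 min to 0.39 at 150 min. The median member spanned 0.77 log2 units between its lowest and highest smoothed level, against 0.93 for the 3109 genes listed in all libraries, 1.36 for the nuclear-encoded respiratory chain and 3.01 for cytosolic ribosomal proteins. At 120 min the median was 6.84, but that library lists only 55 members.

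**Figure D2:**
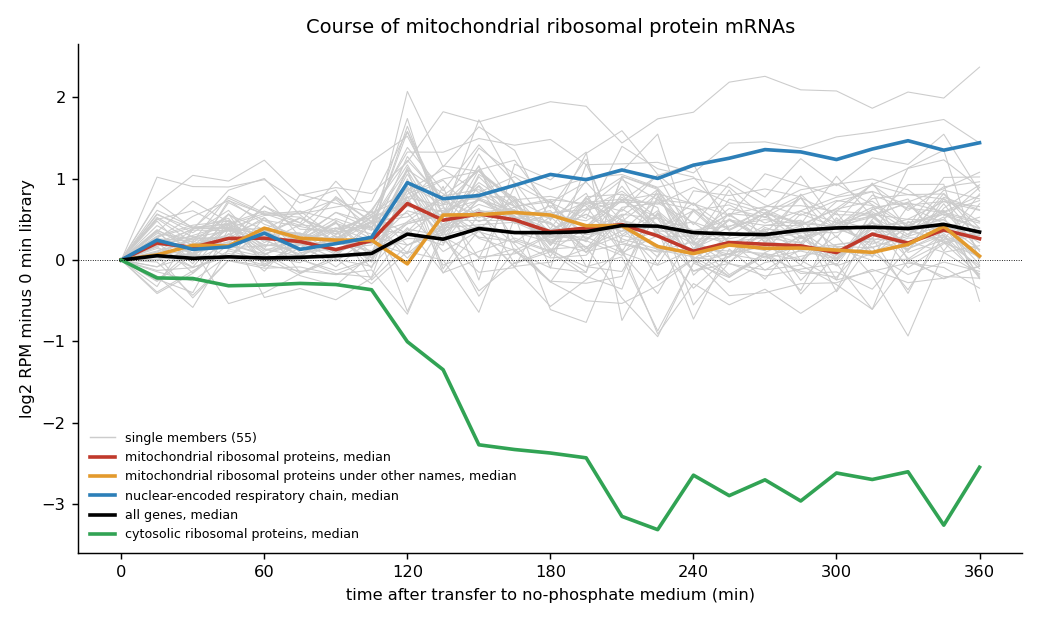
Log2 RPM minus the value of the 0 min library (y axis) against time in no-phosphate medium (x axis, min) for the 55 members listed in all libraries (grey) and the medians of these members (red), of mitochondrial ribosomal proteins with other names (orange), the nuclear-encoded respiratory chain (blue), all genes (black) and cytosolic ribosomal proteins (green). The red and black lines are the median level at each time minus the median level at 0 min, not the median of single-gene differences. The members' median stays near that of all genes, while cytosolic ribosomal proteins drop steeply between 105 and 150 min.

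Against high phosphate, few members moved by 2-fold, and those that did were higher. The baseline is 1 library, so there is no test, and a gene counted when all 4 libraries of a window were on 1 side of the 0 min value and their mean differed from it by 1 log2 unit or more. At 15 to 60 min 0 of 66 members were 2-fold higher (all genes compared: 2.47%) and 0 were lower (0.528%). At 135 to 180 min 3 of 64 were higher (13.9%) and 0 lower (6.85%), and at 315 to 360 min 4 of 65 were higher (21.9%) and 0 lower (6.18%). The 3 were MRPL16, RSM10 and MRP8, and the 4 were these and RSM27. Without the library at 180 or 135 min, 7 or 5 members counted at 135 to 180 min, and the shares of all genes there are not given here. At 75 to 120 min 0 of 55 were higher (4.79%), at 195 to 240 min 4 of 63 (18.9%) and at 255 to 300 min 2 of 65 (19.1%), with 0 lower in each (0.402%, 6.1% and 6.19%). The 4 at 195 to 240 min were the same as at 315 to 360 min, and the 2 at 255 to 300 min were RSM10 and MRP8.

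A small early difference ran through many members. In 40 of 66 members (60.6%) all 4 libraries of 15 to 60 min lay above the 0 min library, against 29.8% of all genes compared. The median member was 0.23 log2 units higher at 15 to 60 min than at 0 min, against 0.02 for all genes, and 0.19 after centring on the median gene. Other mitochondrial lists were higher too in these 4 libraries. In RPM, import genes lay 0.22 to 0.29 above 0 min in the median. The nuclear-encoded respiratory chain lay 0.13 to 0.33 above it, and mitochondrial ribosomal proteins with other names 0.06 to 0.39. By 315 to 360 min the median member was 0.43 above the 0 min library, all genes 0.37, and centring left 0.04 for the members. MRPL16 (uL16m, of the large subunit) had 6.06, 5.94, 5.94 and 6.03 log2 RPM at 15 to 60 min, against 5.04 at 0 min. MRP8 had 7.30, 7.65, 7.58 and 7.83, against 6.61. Because all these differences share the 1 baseline library, its own error enters every one of them; MRPL16 was picked here after its values were seen.

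Between 15 to 60 and 315 to 360 min without phosphate, most members did not differ beyond the spread between neighbouring samples. Of 65 members tested, 9 were higher late (13.8%; all 4535 genes tested: 37.8%), 1 was lower (1.54%; 10.0%) and 55 passed in neither direction (limma, Benjamini-Hochberg adjusted p below 0.05 over all genes). Without the library at 15 min 4 were higher, and without that at 15, 45, 60, 315 or 360 min 0 were lower. The median change was 0.15 log2 units over the members and 0.33 over all genes tested. Both shares lay below those of all genes. The 95% intervals had a median half-width of 0.41 log2 units, and 60 of the 65 lay within a 2-fold change in either direction. All 65 intervals lay above the median change of cytosolic ribosomal proteins, which was -2.53, and 63 lay below that of the nuclear-encoded respiratory chain, which was 1.17.

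The direction of this group depends on the scale. With each library centred on its median gene, all genes tested had a median change of -0.03 in place of 0.33, and the members had -0.21 in place of 0.15. On that scale 3 of 65 members were higher (4.62%) and 11 lower (16.9%), against 873 higher (19.3%) and 973 lower (21.5%) of 4535 genes. The 3 were RSM10, MRP8 and MRPS16, which were higher on both scales (adjusted p = 9.79e-07, 6.7e-05 and 0.0387 centred, limma). The remaining 6 calls of higher late level in RPM did not pass on the centred scale, and MRPL39 was lower on both.

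**Figure D3:**
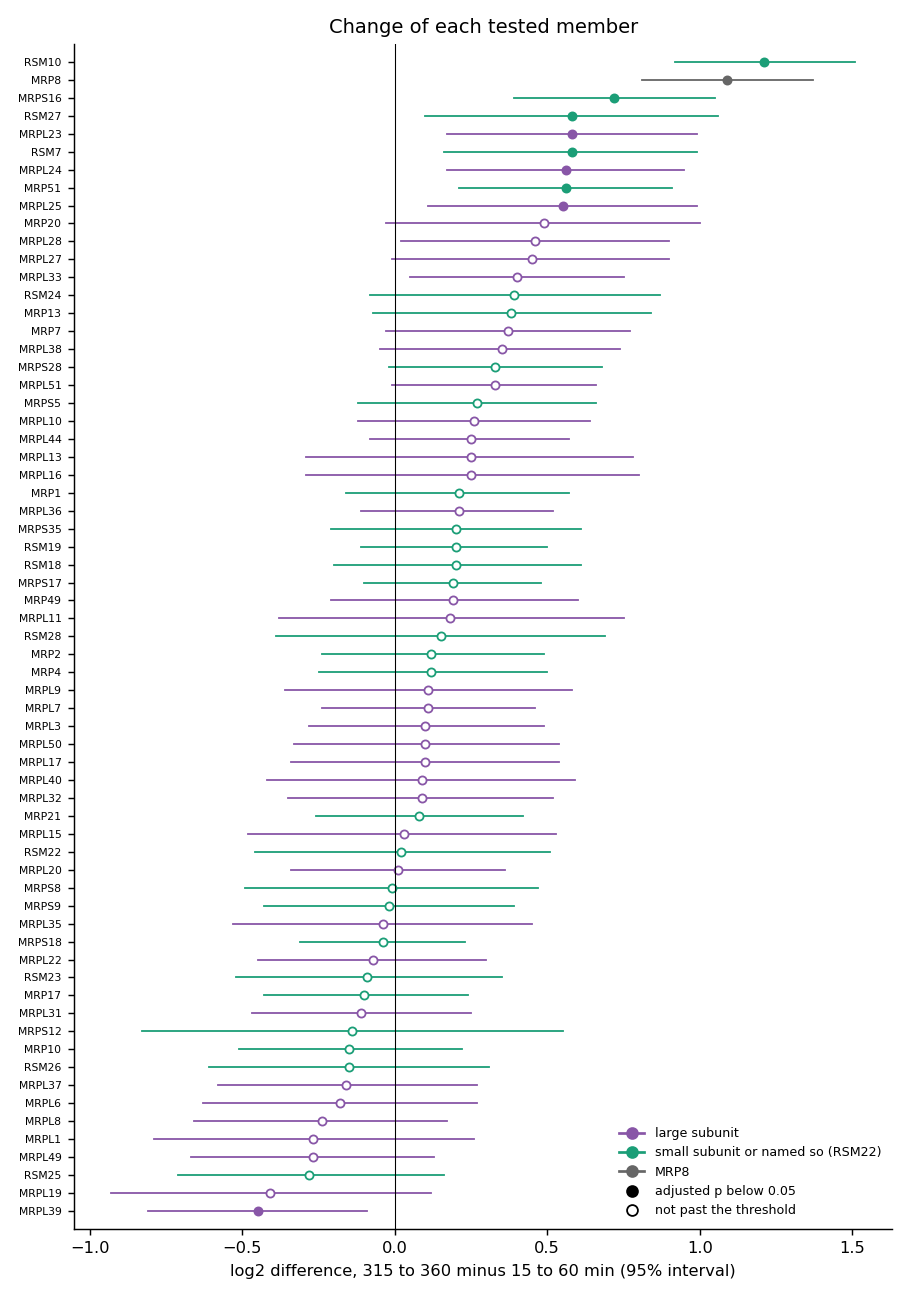
Log2 difference between 315 to 360 and 15 to 60 min (x axis) for each of the 65 tested members, with its 95% interval, in order of size; colours give the subunit and filled points passed the limma test. 9 members are filled on the right and MRPL39 on the left, and most intervals cross 0.

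In the small subunit, 5 of 27 members were higher late in RPM (all genes tested: 37.8%). RSM10 (uS10m, homologue of bacterial S10) had 8.57, 8.64, 8.72 and 8.43 log2 RPM at 315 to 360 min, against 7.29, 7.42, 7.47 and 7.32 at 15 to 60 min and 7.0 at 0 min. All late values lay well above the highest early one, and the step fell between 105 min (7.59) and 135 min (8.32). The value at 120 min was 8.32 too, but in that shallow library the median of the members was also high. RSM10 rose by 1.21 log2 units (SE 0.14, limma adjusted p = 1.93e-08), the largest change among the 65 members. It was called in 15 of 15 alternatives, with adjusted p from 1.67e-09 to 9.79e-07. MRPS16, the most abundant member per length, had 8.76, 8.82, 8.71 and 8.90 late, against 7.99, 8.02, 8.20 and 8.10 early. The groups did not overlap, and the rise was 0.72 (SE 0.16, limma adjusted p = 0.000396).

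RSM27 (mS33, without a bacterial counterpart) had 7.72, 7.92, 8.02 and 7.68 log2 RPM late, against 7.05, 7.02, 7.58 and 7.37 early, a rise of 0.58 (SE 0.23, limma adjusted p = 0.0407). The groups were close but did not overlap, and the call held in 3 of 8 fits that each left out 1 library. RSM7 (uS7m, homologue of bacterial S7) had 6.97, 6.54, 7.17 and 6.89 late, against 6.03, 6.29, 6.53 and 6.42 early. Its lowest late value was only just above its highest early one, and its rise of 0.58 (limma adjusted p = 0.0194) held in 6 of 8 such fits. MRP51 (bS1m), known to act with the mRNAs of mitochondria-encoded cytochrome oxidase subunits, rose by 0.56 (SE 0.17, limma adjusted p = 0.00818), with late values of 7.11 to 7.72 that overlapped early ones of 6.70 to 7.22. The lowest value of change in the small subunit was -0.28 for RSM25 (mS23), which did not pass in RPM.

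In the large subunit, 3 of 36 tested members were higher late in RPM (all genes tested: 37.8%) and 1 was lower (10.0%). MRPL23 (uL13m) had 6.27, 6.36, 6.21 and 6.15 log2 RPM late, against 5.34, 5.52, 6.07 and 5.74 early. The groups did not overlap, and the rise was 0.58 (SE 0.20, limma adjusted p = 0.0173). MRPL24 (bL28m) and MRPL25 (mL59) rose by 0.56 and 0.55 (limma adjusted p = 0.0166 and 0.0336), with overlapping groups. The calls of MRPL23 and MRPL24 held in 6 of 8 fits that each left out 1 library, and that of MRPL25 in 4 of 8. MRP51, MRPL24 and MRPL25 are named here only to complete the 9.

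MRPL39 (bL33m), the shortest member with 213 coding bases, went the other way. It had 5.73, 6.32, 6.13 and 6.11 log2 RPM at 315 to 360 min, against 6.48, 6.38, 6.72 and 6.52 at 15 to 60 min and 6.76, 6.92, 6.82 and 6.68 at 135 to 180 min. The late values lay below all values of both earlier windows. It fell by 0.45 against 15 to 60 min (limma adjusted p = 0.0353, held in 3 of 8 fits leaving out 1 library) and by 0.72 against 135 to 180 min (SE 0.18, limma adjusted p = 0.0042, held in 8 of 8). Other low values of change in the large subunit were -0.41 for MRPL19 (uL11m), -0.27 for MRPL1 (uL1m), -0.27 for MRPL49 (bL21m) and -0.24 for MRPL8 (bL17m). None of these 4 passed in RPM, and MRPL19, MRPL49 and MRPL8 passed as lower on the centred scale. The values of MRPL19 are uncertain, since it overlaps another annotated gene.

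The 2 members that are not annotated as ribosomal proteins differed from each other. MRP8 had 8.47, 8.67, 8.60 and 8.98 log2 RPM at 315 to 360 min, against 7.30, 7.65, 7.58 and 7.83 at 15 to 60 min. The groups did not overlap, and it rose by 1.09 (SE 0.14, limma adjusted p = 6.16e-08). RSM22 had 5.44, 5.54, 5.48 and 5.23 late, against 5.34, 5.18, 5.96 and 5.12 early. Its groups overlapped widely, with a difference of 0.02 and a 95% interval of -0.46 to 0.51. Without MRP8 and RSM22, 8 of 63 ribosomal members were higher and 1 lower, and the median stayed at 0.15.

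**Figure D4:**
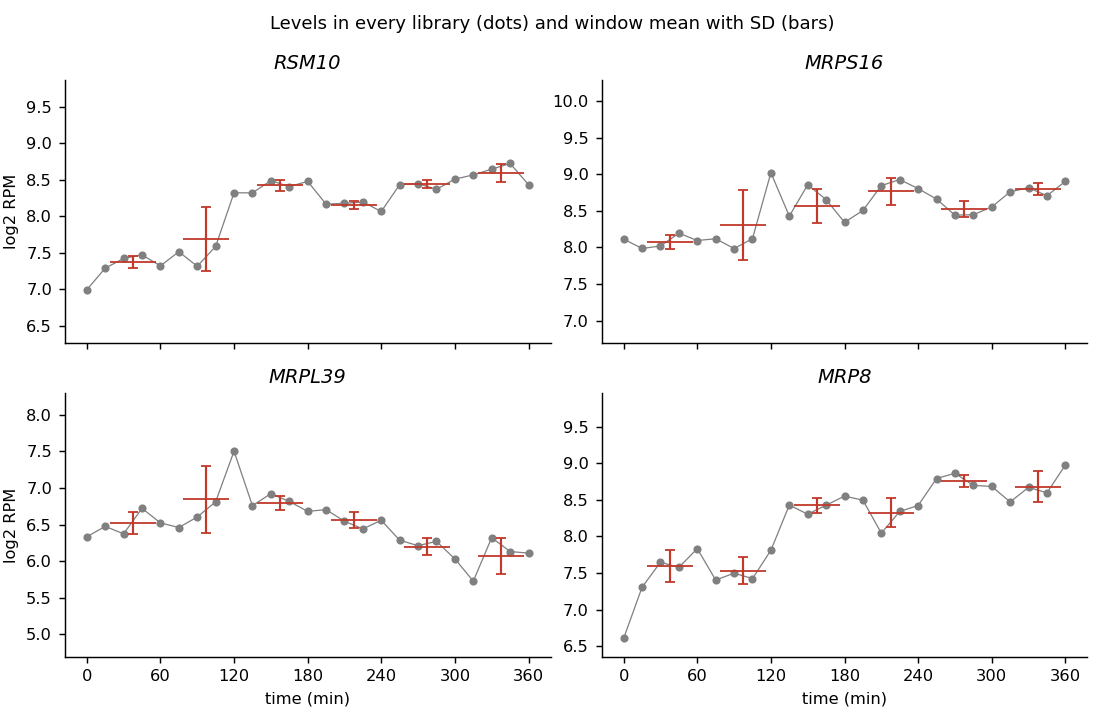
Log2 RPM (y axis) of RSM10, MRPS16, MRPL39 and MRP8 in each of the 25 libraries against time in min (x axis), with the mean and SD of each 4-library window in red. RSM10 and MRP8 step up between 105 and 135 min and stay high, whereas MRPL39 is lowest at the end.

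The members were next compared between 135 to 180 and 15 to 60 min. In RPM, 12 of 65 members were higher (18.5%; all genes: 28.8%) and 0 lower (7.61%), with a median of 0.26 for the members and 0.28 for all genes; at an unadjusted limma p below 0.05, 21 were higher and 0 lower (all genes: 37% and 9.48%, or 1680 and 430 of 4535). Without the library at 30 min, 7 were higher at the adjusted threshold. RSM10 (1.05), MRP8 (0.84) and RSM24 (0.71; mS35, of the small subunit) had the largest rises. RSM24 had 6.56, 6.09, 6.31 and 5.77 log2 RPM at 135 to 180 min, against 5.55, 5.14, 5.57 and 5.62 at 15 to 60 min, without overlap. The smallest passing rises were those of MRPS16 (0.50), MRPL36 (0.49; bL31m) and RSM19 (0.39; uS19m). With 1 library left out at a time, the call of RSM19 held in 3 of 8 fits, those of RSM24 and MRPL36 in 6 of 8 and that of MRPS16 in 7 of 8. Centred on the median gene, 2 members were higher (3.08%, all genes 10.7%) and 1 lower (1.54%, all genes 14.4%), with a median of -0.03. In RPM more members were higher at 135 to 180 min than at the end (12 against 9), whereas centred the calls in either direction were fewer than at the end.

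After 135 to 180 min few members passed. Between 315 to 360 and 135 to 180 min 0 of 65 were higher (all genes: 10.8%) and only MRPL39 was lower (7.78%), with a median of -0.07; at an unadjusted limma p below 0.05 the counts were 0 and 8 (all genes: 19.6% and 13.5%). Without the library at 180, 315 or 345 min, 2 were lower at the adjusted threshold. Centred on the median gene, 6 were lower (9.23%, all genes 10.4%). Between successive windows, limma called 0 of 65 members in 4 of 5 contrasts at the adjusted threshold. For 75 to 120 minus 15 to 60 min all genes had 0.397% higher and 0.309% lower calls; at an unadjusted p below 0.05, 3 members were higher and 0 lower, against 7.61% and 2.62% of all genes. For 195 to 240 minus 135 to 180 min the calls over all genes were 0.198% and 0.684%, and the unadjusted counts were 2 and 5 members, against 7.72% and 6.11% of all genes. For 255 to 300 minus 195 to 240 min the calls were 0.0882% and 0.0662%, and unadjusted 2 and 6 members, against 4.1% and 5.12%. For 315 to 360 minus 255 to 300 min the calls were 0.0662% and 0.0221%, and unadjusted 2 and 0 members, against 3.57% and 2.73%.

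The step that passed was 135 to 180 minus 75 to 120 min, with 5 members higher (all genes: 19.8%) and 0 lower (6.77%). They were MRP8 (0.89), MRPL3 (0.83; mL44, without a bacterial counterpart), RSM10 (0.74), MRPL24 (0.54) and MRPS17 (0.51; uS17m). Without the shallow library at 120 min, limma called 9 members there, and the share of all genes in that fit is not given here. A spline of time with 4 degrees of freedom called 22 of 65 members (33.8%) and 58.8% of all genes tested (limma F test).

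By subunit and by origin, few members of any class passed. Late minus early in RPM, the median was 0.19 over 27 small-subunit and 0.11 over 36 large-subunit members. Of these, 5 and 3 were higher, against 37.8% of all genes tested. Homologues of bacterial proteins had a median of 0.12 (6 of 39 higher, 1 lower), and proteins without a bacterial counterpart 0.17 (2 of 24 higher, 0 lower). Centred on the median gene, the small subunit had 2 higher and 4 lower (median -0.17), and the large subunit 0 and 7 (-0.25). On that scale homologues of bacterial proteins had 2 higher and 7 lower (-0.23), and the proteins without a counterpart 0 and 4 (-0.19). Over all genes tested, 19.3% were higher and 21.5% lower there. The difference between these classes was not tested. The small subunit, here with RSM22 counted in, held 0.348% ± 0.0152 of the reads at 315 to 360 min and 0.277% ± 0.0178 at 15 to 60 min. The large subunit held 0.305% ± 0.0216 and 0.278% ± 0.018 (SD, n = 4 each).

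Mitochondrial ribosomal proteins that carry other names gave no call in RPM. Of 13 such genes 12 were tested and 0 passed in RPM, with a median of -0.05 and values from -0.32 for MNP1 to 0.35 for RTC6, both of the large subunit; centred, 4 were lower. All 13 hold TGTANATA after the stop codon. In RPM, where 37.8% of all genes were called higher, each other list of the mitochondrial translation system had members that rose. 4 of 6 tested genes of mitoribosome assembly rose, led by MRM1 (1.08), which methylates the large rRNA, and the lowest value was 0.05 for GEP3. 3 of 6 translation factors rose, from 0.94 for the initiation factor gene AIM23 down to a value of -0.27 for the elongation factor gene TUF1, which did not pass. 4 of 11 translational activators rose, with AEP1 highest at 0.94 and CBP3 lowest at 0.10, and 1 of 11 mitochondrial tRNA synthetases, ISM1 at 0.90, with MSK1 lowest at -0.40. None of these lists had a member that passed as lower in RPM. Centred on the median gene, 1 assembly gene was higher, 1 translation factor was higher and 1 (TUF1) lower, 1 activator was higher, and 0 tRNA synthetases were higher and 1 (MSK1) lower. Whether they differ from the members was not tested.

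Among genes that deliver proteins to mitochondria or use the products of the mitochondrial ribosome, calls in RPM went in both directions. Of the 4 insertion genes, OXA1 (0.57), MDM38 (0.37) and COX18 (0.81) rose, and MBA1 had 0.25. Of the 6 tested genes for mitochondrial genome expression, ABF2, which packages mitochondrial DNA, rose by 0.77, and MSS116 was lowest at -0.27. In protein import 13 of 33 genes fell and 0 rose, with TOM5 lowest at -1.09 and TIM22 highest at 0.41. In the nuclear-encoded respiratory chain 36 of 38 rose, with SDH2 highest at 1.72 and CYC1 lowest at -0.22. Cytosolic ribosome biogenesis had 3 genes higher and 8 lower of 76 (median -0.03), and 135 of 136 cytosolic ribosomal protein genes fell. Centred on the median gene, 0 insertion genes passed, 1 gene of mitochondrial genome expression was higher and 2 lower, and 21 import genes were lower. On that scale 33 respiratory chain genes were higher and 1 lower, ribosome biogenesis had 1 higher and 26 lower (median -0.39), and 135 cytosolic ribosomal protein genes were lower. The import genes hold TGTANATA in 72.7% and the respiratory chain in 20.5%, whereas the cytosolic ribosomal proteins hold it in 5.84%. Non-member genes with the motif had a median change of 0.29, and those without it 0.34. PUF3 itself was listed in 19 libraries and not tested, with 4.44 ± 0.16 log2 RPM at 315 to 360 min and 4.20 ± 0.33 at 15 to 60 min, over the libraries that list it.

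**Figure D5:**
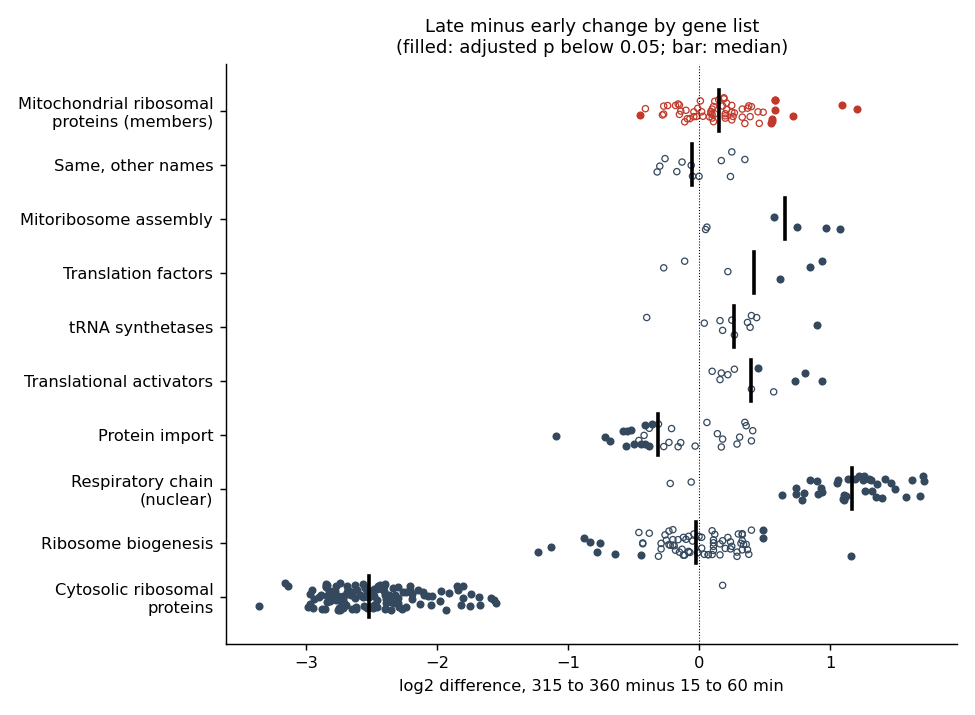
Log2 difference between 315 to 360 and 15 to 60 min (x axis) for the genes of each list (rows), with filled points past the limma threshold and a bar at the median. The members (red) centre on 0.15, between the nuclear-encoded respiratory chain at 1.17 and the cytosolic ribosomal proteins at -2.53.

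The genes whose course over the 25 libraries was most like the median course of the members were YER163C, a gamma-glutamylcyclotransferase (Pearson r = 0.879), MDM35 (0.866) and COX17, a copper chaperone for cytochrome oxidase (0.852). RPN8, PRE10, PRE9 and NAS6, which belong to or assemble the proteasome, the V-ATPase subunit gene VMA7, the import motor gene PAM17 and LCL2 completed the 10 most alike of 3054 genes compared, with r down to 0.80. Without the 120 min library these values lay between 0.71 and 0.83. The members themselves had a median r of 0.47 with the median course of the other members, against 0.19 for all other genes. It ran from -0.46 for MRP4 (uS2m), whose values are uncertain because it overlaps another annotated gene, to 0.76 for MRPL16. All points share libraries and depth, so these values are descriptions.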

How the data were processed

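RNA from 25 samples of 1 course was sequenced on an Illumina instrument after lyticase lysis and kit extraction in plates, per the labels' protocols. The aligner was Bowtie and the build R64, per the submitters' processing notes; for its version, the counter, strand and reads that map to several places, the answer is not given in the sources used here. The deposited values are log2 values made by the authors, whose linear values sum to 1000000 per library (RPM), and they are not ratios to the 0 min library, whatever the series' description of the normalization. Of the values below 400 RPM, 96.27% came out whole (tolerance 0.01) when the smallest value of a library was set to 10 reads, which gave the depth; such depths and SDs cover counting error only, and no count model was run on a log2 table.

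limma 3.58.1 in R 4.3.3 fitted the means of 6 windows of 4 times (lmFit, eBayes with trend and robust, no pseudocount) to 4535 genes with at least 3 values in each window, with two-sided Benjamini-Hochberg adjusted p-values over all of them. Tested on simulated data for 315 to 360 minus 15 to 60 min over 4535 genes, it recovered 31 of 40 genes at a true log2 change of 1. It recovered 11 of 40 at 0.5 and 40 of 40 at 2, and called 10 of 4335 unchanged genes. The simulated noise was independent between libraries and most genes were unchanged, whereas 37.8% of genes were called higher and 10.0% lower in the data. The adjusted threshold depends on that share, so these counts do not give the recovery in the real contrast. Sequences and positions came from the NCBI R64 genome and RefSeq annotation. Named members were the 6 highest and 6 lowest changes, the 3 highest and 3 lowest passing in the contrasts with 135 to 180 min, the 3 most abundant per length, any passing against the majority, MRP8 and RSM22; of each other list, the highest and lowest. The members and lists were chosen with earlier results of these data known. Alternatives were another scaling, filters, weights, eBayes settings, window limits, folds, baselines and leaving out libraries.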

Additional observations from a re-analysis of the deposited data

Results flagged for a closer look

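Within windows of 4 libraries, 8 of 116 groups examined had 1 library far from the other 3, and chance alone gives about 1 group in 20. At 120 min, the shallowest library, the median of the 55 members listed was 6.84 log2 RPM. The other libraries of the window had 6.22 to 6.25 over all 66 members, and 6.27 to 6.39 over the same 55. The members held 0.80% of the reads at 120 min against 0.57% to 0.59%. In the same library MRPS16 had 9.02 against 7.98 to 8.12, and MRPL19 had 5.58 against 6.23 to 6.28. RSM24 had 5.14 at 30 min against 5.55 to 5.62. RSM7 had 7.32 at 210 min against 6.82 to 6.89. MRPL23 had 5.67 at 225 min against 5.97 to 6.02. MRPL1 had 4.78 at 270 min against 4.55 to 4.56.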

How the results depend on the processing

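Centring each library on its median gene changed several counts. For 315 to 360 minus 15 to 60 min it gave 3 members higher (all genes: 19.3%), 11 lower (21.5%) and a median of -0.21. For 135 to 180 minus 15 to 60 min it gave 2 higher (10.7%), 1 lower (14.4%) and a median of -0.03. For 315 to 360 minus 135 to 180 min it gave 6 lower (10.4%). With 8 windows of 3 samples, 0 members were lower late. Restricting to genes listed in all 24 no-phosphate samples, or eBayes without trend and robust, gave 2 members lower in 315 to 360 minus 135 to 180 min. Leaving out 1 library at a time gave 4 (without 15 min) to 10 members higher and 0 (without 15, 45, 60, 315 or 360 min) to 1 lower late against early; 7 (without 30 min) to 14 higher for 135 to 180 minus 15 to 60 min; 1 to 2 (without 180, 315 or 345 min) lower for 315 to 360 minus 135 to 180 min; 4 to 9 (without 120 min) for 135 to 180 minus 75 to 120 min; and 0 to 1 (without 195 min) for 195 to 240 minus 135 to 180 min. Against high phosphate, a 1.5-fold limit gave 4 of 66, 11 of 55 and 24 of 64 members in the first 3 windows. In the last 3 windows it gave 18 of 63, 13 of 65 and 16 of 65. The shares of all genes at that limit are not given here, so these counts cannot be set against a background. The same holds for the counts in this section with a library left out. Centring gave 1 at 195 to 240 min and 2 at 315 to 360 min, and the 15 min sample as baseline gave 2 at 195 to 240 min. Leaving out a library there gave 0 to 1 (without 15 min) at 15 to 60 min, 0 to 2 at 75 to 120 min (1 without 75 or 105, 2 without 90 min) and 3 to 7 at 135 to 180 min (5 without 135, 7 without 180 min). The smoothed median of the members, highest at 135 min in RPM and also when centred, was highest at 60 min when centred without the 120 min library. This alternative, over the 55 members listed in all libraries, was added after the data were seen. The cause of these shifts was not tested. For single named members, 30 results lost and 2 gained the call when a library was left out, and 11 lost and 5 gained it under other alternatives; none reversed. Leaving out MRP8 and RSM22 was added then too. No paired analysis was possible because the labels carry no replicate numbers and each time has 1 library. Shallow libraries limit low members such as MRPL4, and the median 95% half-width of 0.41 log2 units limits what could be detected.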
